A study of Rattus norvegicus with 30 samples.

Results

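Pnpla3 and 7 other genes that encode neutral lipid hydrolases of the liver were followed across 6 diets in rat liver: Pnpla3, Pnpla2, Mgll, Ddhd1, Ddhd2, Ces1d, Lipe and Lipc. They were taken by the symbols that the platform annotation gives to probe sets, which yielded 14 of the 31042 probe sets on the array. Of these, 13 were bright enough to be among the 18625 tested, and all 8 genes, of 10699 tested, had at least 1 of them. In RefSeq records of build GRCr8, Pnpla3 lies on chromosome 7, Pnpla2 and Lipe on 1, Mgll on 4, Ddhd1 on 15, Ddhd2 on 16, Ces1d on 19 and Lipc on 8. The genes had been picked with their values in soy-fed, tofu-fed and casein-fed livers known. The differences between soy or tofu diets and casein diets are therefore given below as a description, with no test.

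Male Sprague-Dawley rats arrived at 4 weeks of age, took a commercial chow for 5 days and were then fed a purified diet for 14 days. Each diet held 200 g of protein per kg and went to 5 rats. In T20 all 200 g/kg came from freeze-dried tofu, and in T10 100 g/kg came from tofu and 100 g/kg from casein. S had soy protein, SI had soy protein with isoflavones, CI had casein with isoflavones, and C had casein alone. The isoflavones in SI and CI were set to the level of T20. Hepatic total RNA of each of the 30 rats was hybridised to 1 Affymetrix array, so n is 5 rats per diet throughout. Values are log2 of the deposited intensity, on which a difference of 1 is a doubling, and differences are given with their standard error from a limma model of all arrays.

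The libraries were alike in brightness, with a median intensity between 216.9 and 254.7 over the 30 arrays. The 6 hepatocyte markers on the array were above the filter level, with summed intensities of 294510 to 344378 in T20, 312187 to 390399 in T10, 318886 to 403640 in SI, 308331 to 349963 in S, 311444 to 350201 in CI and 287565 to 380452 in C. Of 6 adipocyte markers, Adipoq, Lep and Plin1 lay below the filter level of 7.39 on average, at 6.76, 6.72 and 7.35. Cfd, Cidea and Fabp4 lay above it, at 9.68, 8.65 and 7.48. The summed intensity of the 6 adipocyte markers ran from 1600.2 to 2531.6 in the 20 soy-fed or tofu-fed livers and from 1515.6 to 2088 in the 10 casein-fed livers. In RNA from whole liver, fewer cells of a type and less RNA per cell cannot be told apart. The ratio of GAPDH 3′ to 5′ signal, a measure of RNA and labelling quality, was highest in 3 T10 arrays (replicates 3, 4 and 5, with 1.32 to 1.58). All the remaining 27 arrays had 0.970 to 1.25. The T10 differences of the 8 hydrolases, Plin3, Ces2c, Mlxipl and Srebf1 are also given without these 3 arrays.

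Fat stored in the hepatocyte sits in lipid droplets as triacylglycerol. Lipases on the droplet and in the endoplasmic reticulum take its fatty acids off in steps, through diacylglycerol and monoacylglycerol, for oxidation, for signalling or for rebuilding into secreted lipoproteins. Pnpla2 (adipose triglyceride lipase) starts the sequence on the droplet, Lipe (hormone-sensitive lipase) acts on diacylglycerol and cholesteryl ester, and Mgll (monoacylglycerol lipase) ends it. Pnpla3 (adiponutrin) is a relative of Pnpla2 that coats droplets, and in mice it is induced by refeeding and by insulin through SREBP-1c. Ddhd1 and Ddhd2 are intracellular relatives with phospholipase and lipase activity, Ces1d is a carboxylesterase of the endoplasmic reticulum that in mice takes part in mobilising stored triacylglycerol for very low density lipoprotein, and Lipc (hepatic lipase) works outside the cell on circulating lipoproteins.

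Stretches before the transcription start were available from RefSeq (build GRCr8) for 5 of the 8 genes, and 4 are printed because they stand for the different patterns below. Pnpla3 was lower on soy or tofu diets than on casein diets without overlap, and Mgll was lower with partial overlap. Ces1d was higher without overlap, and Pnpla2 overlapped between the diets. Each printed stretch shows the 250 bases before the start, 5′ to 3′ on the strand of the gene. Capitals mark matches, on either strand, to CCAAT (the CCAAT box, read as ATTGG on the other strand), CACGTG (an E-box), TCACNCCAC (a sterol regulatory element), GGGCGG (a GC box, CCGCCC on the other strand) and TGACGTCA (a cyclic AMP response element). The marked matches do not overlap each other.
The Pnpla3 stretch lies at chr7:117173278-117173527, plus strand.
Pnpla3: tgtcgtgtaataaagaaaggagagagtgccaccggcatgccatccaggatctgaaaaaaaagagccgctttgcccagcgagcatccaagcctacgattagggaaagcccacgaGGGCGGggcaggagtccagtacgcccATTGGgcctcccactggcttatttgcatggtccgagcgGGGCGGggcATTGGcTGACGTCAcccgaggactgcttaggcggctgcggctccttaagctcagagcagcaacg
The Mgll stretch lies at chr4:122749186-122749435, plus strand.
Mgll: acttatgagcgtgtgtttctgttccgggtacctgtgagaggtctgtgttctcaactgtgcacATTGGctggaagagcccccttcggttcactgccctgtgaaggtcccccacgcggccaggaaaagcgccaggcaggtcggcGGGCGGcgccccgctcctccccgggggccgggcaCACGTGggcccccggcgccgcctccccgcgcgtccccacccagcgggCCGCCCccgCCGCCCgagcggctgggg
The Ces1d stretch lies at chr19:30046244-30046493, plus strand.
Ces1d: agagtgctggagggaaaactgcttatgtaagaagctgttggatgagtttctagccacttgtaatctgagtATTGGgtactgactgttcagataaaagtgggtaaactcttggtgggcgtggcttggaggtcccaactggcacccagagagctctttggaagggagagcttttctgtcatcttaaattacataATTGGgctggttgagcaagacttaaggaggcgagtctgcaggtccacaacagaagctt
The Pnpla2 stretch lies at chr1:205982029-205982278, plus strand.
Pnpla2: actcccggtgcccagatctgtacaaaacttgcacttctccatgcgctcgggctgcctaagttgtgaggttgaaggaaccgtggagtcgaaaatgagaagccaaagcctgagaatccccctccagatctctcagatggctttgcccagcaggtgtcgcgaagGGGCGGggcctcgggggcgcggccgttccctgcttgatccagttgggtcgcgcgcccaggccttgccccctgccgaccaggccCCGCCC
The Pnpla3 stretch held 2 CCAAT matches, 2 GGGCGG matches and 1 TGACGTCA match, the last 51 to 58 bases before the start. Mgll had 1 CCAAT, 1 CACGTG and 3 GGGCGG matches, Ces1d had 2 CCAAT matches, and Pnpla2 had 2 GGGCGG matches. No TCACNCCAC was found in these stretches. Over 33469 stretches of the same length before rat genes, 34% held CCAAT, 30.5% GGGCGG, 5.59% CACGTG, 1.59% TGACGTCA and 0.974% TCACNCCAC. The matches are a description of letters and were not tested against the expression values.

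Pnpla3 separated the soy and tofu diets from the casein diets without overlap. Its log2 intensities were 6.78, 8.12, 8.24, 8.68 and 8.76 in T20 livers. In T10 livers they were 8.20, 8.61, 9.08, 9.20 and 10.15. SI livers had 7.27, 7.46, 8.11, 8.62 and 8.97. S livers had 6.19, 7.07, 8.32, 8.45 and 8.55. All of these lay below every casein-fed liver. The values were 10.74, 12.70, 12.72, 13.05 and 13.18 in CI livers and 11.68, 11.93, 11.96, 12.13 and 12.68 in C livers. The highest of the 20 soy-fed or tofu-fed livers, a T10 liver at 10.15, stayed under the lowest of the 10 casein-fed livers, a CI liver at 10.74. Of all 18625 probe sets tested, 13 (0.0698%) were lower in all 20 than in all 10, and 6 (0.0322%) were higher.

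The difference of Pnpla3 from C was -3.96 ± 0.47 in T20, which is a 15.6-fold lower mean. It was -3.03 ± 0.47 in T10 (8.15-fold), -3.99 ± 0.47 in SI (15.9-fold) and -4.36 ± 0.47 in S (20.5-fold). With isoflavones in both diets, SI minus CI was -4.39 ± 0.47. These comparisons share the C arrays, apart from SI against CI. In 1 T20, 1 SI and 2 S livers Pnpla3 was under the filter level of 7.39.

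**Figure D1:**
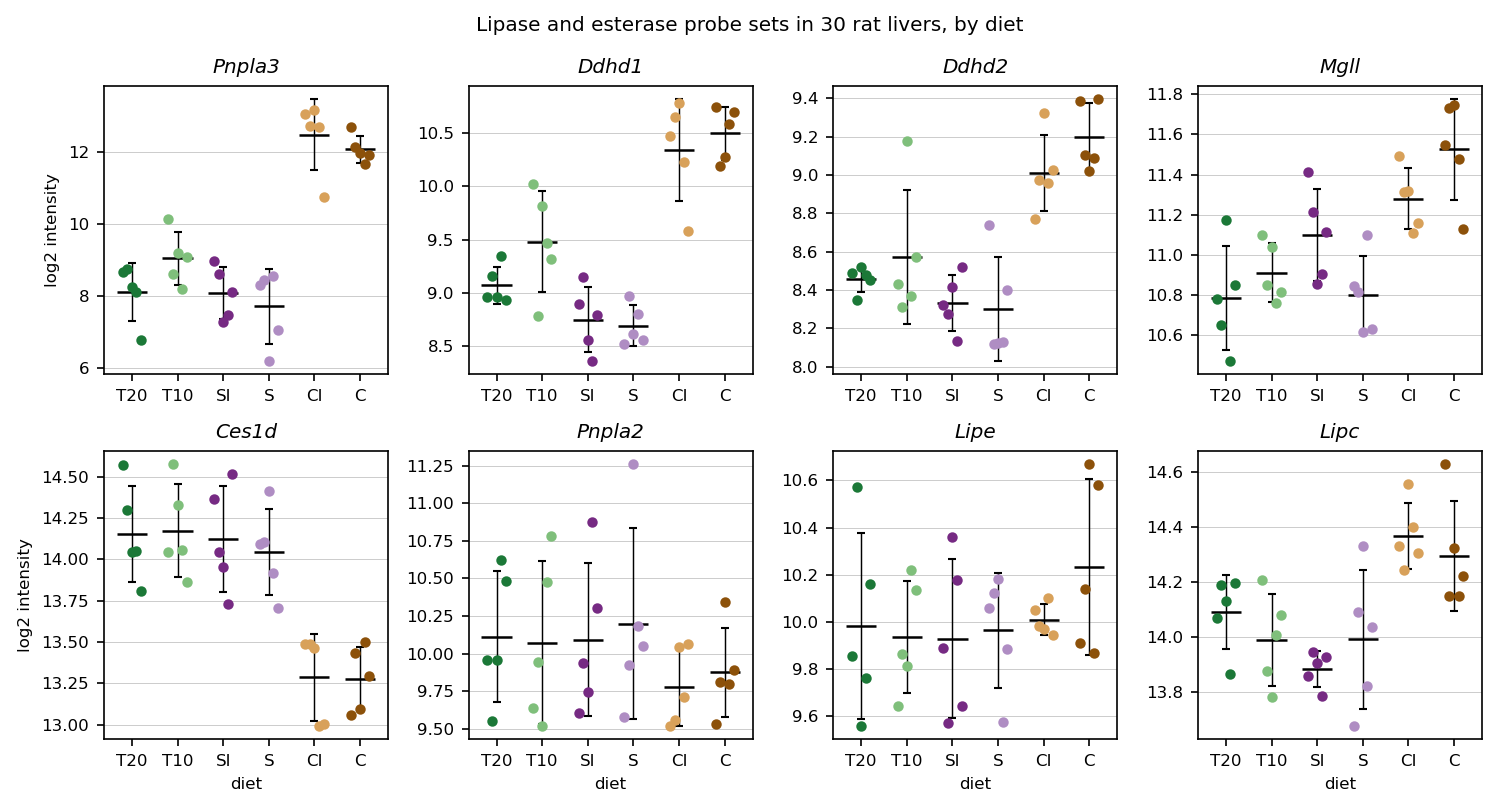
Log2 intensity (y axis) of the 8 genes in each of 30 livers, by diet (x axis), with the mean as a horizontal line and the SD as an error bar, n = 5 rats per diet. Pnpla3 in the 20 livers of T20, T10, SI and S lay between 6.19 and 10.15, below the 10.74 to 13.18 of CI and C, and Ces1d in the same 20 livers lay at 13.71 to 14.58, above the 12.99 to 13.50 of CI and C.

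Pnpla3 has 3 probe sets on the array, and each gave the same separation of all 20 from all 10 livers. The second probe set differed from C by -4.29 ± 0.50 in T20, -3.05 ± 0.50 in T10, -4.81 ± 0.50 in SI and -5.17 ± 0.50 in S. The third gave -2.66 ± 0.35 in T20, -2.27 ± 0.35 in T10, -2.59 ± 0.35 in SI and -3.16 ± 0.35 in S. The mean of the second probe set in SI (7.15) and S (6.80) and that of the third in S (7.04) lay under the filter level of 7.39, which these probe sets passed through the casein-fed livers, so the sizes of these 3 differences are uncertain. The direction was the same for all 3 probe sets.

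Ranked by mean, Pnpla3 was highest in CI (12.48 ± 0.99) and C (12.08 ± 0.38), followed by T10 (9.05 ± 0.73), T20 (8.11 ± 0.80), SI (8.09 ± 0.73) and S (7.72 ± 1.04, SD, n = 5 each). Neighbours within the casein pair and within the soy and tofu diets were not separated by limma on the brightest probe set. Their values were known when Pnpla3 was picked, so these tests are not independent of that choice. CI minus C was 0.40 (95% interval -0.57 to 1.38, adjusted p = 0.837). T20 minus T10 was -0.93 (-1.91 to 0.04, adjusted p = 0.721), T20 minus SI was 0.03 (-0.95 to 1.00, adjusted p = 0.985), and SI minus S was 0.37 (-0.60 to 1.34, adjusted p = 0.999). These intervals are wide, so with 5 rats per diet differences up to their outer bounds are not excluded. On the second probe set T20 minus T10 was -1.24 (-2.26 to -0.22, adjusted p = 0.634). The third gave -0.39 (-1.11 to 0.33, adjusted p = 0.863).

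Ddhd1, an intracellular phospholipase that prefers phosphatidic acid, was also lower on the soy and tofu diets, on a smaller scale. Its values were 8.93, 8.96, 8.96, 9.16 and 9.34 in T20 livers and 8.79, 9.32, 9.46, 9.81 and 10.02 in T10 livers. They were 8.36, 8.56, 8.79, 8.89 and 9.15 in SI livers and 8.52, 8.56, 8.62, 8.80 and 8.97 in S livers. CI livers had 9.58, 10.22, 10.47, 10.65 and 10.78, and C livers had 10.19, 10.27, 10.58, 10.69 and 10.74. All 20 soy-fed or tofu-fed livers lay below every C liver, and 18 of them also below the lowest CI liver, the exceptions being T10 livers at 9.81 and 10.02. The difference from C was -1.43 ± 0.20 in T20, -1.02 ± 0.20 in T10, -1.75 ± 0.20 in SI and -1.80 ± 0.20 in S, and SI minus CI was -1.59 ± 0.20.

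Ddhd2, which acts in mouse brain as a triacylglycerol lipase, was also lower. It stood at 8.35, 8.45, 8.48, 8.49 and 8.52 in T20 livers and at 8.31, 8.37, 8.43, 8.57 and 9.18 in T10 livers. SI livers had 8.13, 8.27, 8.32, 8.42 and 8.52 and S livers 8.12, 8.12, 8.13, 8.40 and 8.74. CI livers had 8.77, 8.96, 8.97, 9.03 and 9.32 and C livers 9.02, 9.09, 9.11, 9.38 and 9.40. A single T10 liver at 9.18 reached the range of the casein-fed livers, and the other 19 lay below all 10 of them. The difference from C was -0.74 ± 0.14 in T20, -0.63 ± 0.14 in T10, -0.87 ± 0.14 in SI and -0.90 ± 0.14 in S.

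Mgll, which hydrolyses monoacylglycerol including the endocannabinoid 2-arachidonoylglycerol, was lower with partial overlap. T20 livers had 10.47, 10.65, 10.78, 10.85 and 11.17, and T10 livers had 10.76, 10.82, 10.85, 11.04 and 11.10. SI livers had 10.86, 10.91, 11.12, 11.21 and 11.41, and S livers had 10.62, 10.63, 10.81, 10.84 and 11.10. CI livers had 11.11, 11.16, 11.31, 11.32 and 11.49, and C livers had 11.13, 11.48, 11.55, 11.73 and 11.75. On this probe set T10 and S livers lay below all C livers, whereas T20 and SI livers overlapped with the lowest C liver. The difference from C was -0.74 ± 0.13 in T20, -0.61 ± 0.13 in T10, -0.43 ± 0.13 in SI and -0.72 ± 0.13 in S. The other tested Mgll probe sets overlapped with C in each of these diets. Their differences were -0.38 and -0.58 in T20, -0.37 and -0.66 in T10, -0.22 and -0.40 in SI and -0.43 and -0.76 in S.

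With isoflavones in both diets the Mgll difference was smaller, at -0.18 ± 0.13 for SI minus CI with overlapping groups. Isoflavones went with a higher Mgll value on soy protein (SI minus S 0.30, 95% interval 0.03 to 0.57) and a lower value on casein (CI minus C -0.25, -0.51 to 0.02). Neither difference passed limma after adjustment (adjusted p = 0.999 and 0.600), in tests that are not independent of the choice of Mgll. The difference of these differences was 0.55 ± 0.18, given without a test because it is made of the contrasts known when Mgll was picked. The other tested Mgll probe sets had the same sign, 0.34 ± 0.14 and 0.68 ± 0.18. Their CI minus C was -0.13 (95% interval -0.33 to 0.08) and -0.32 (-0.58 to -0.07), with limma adjusted p of 0.744 and 0.493. The remaining Mgll probe set lay below the filter on average and was not tested.

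**Figure D2:**
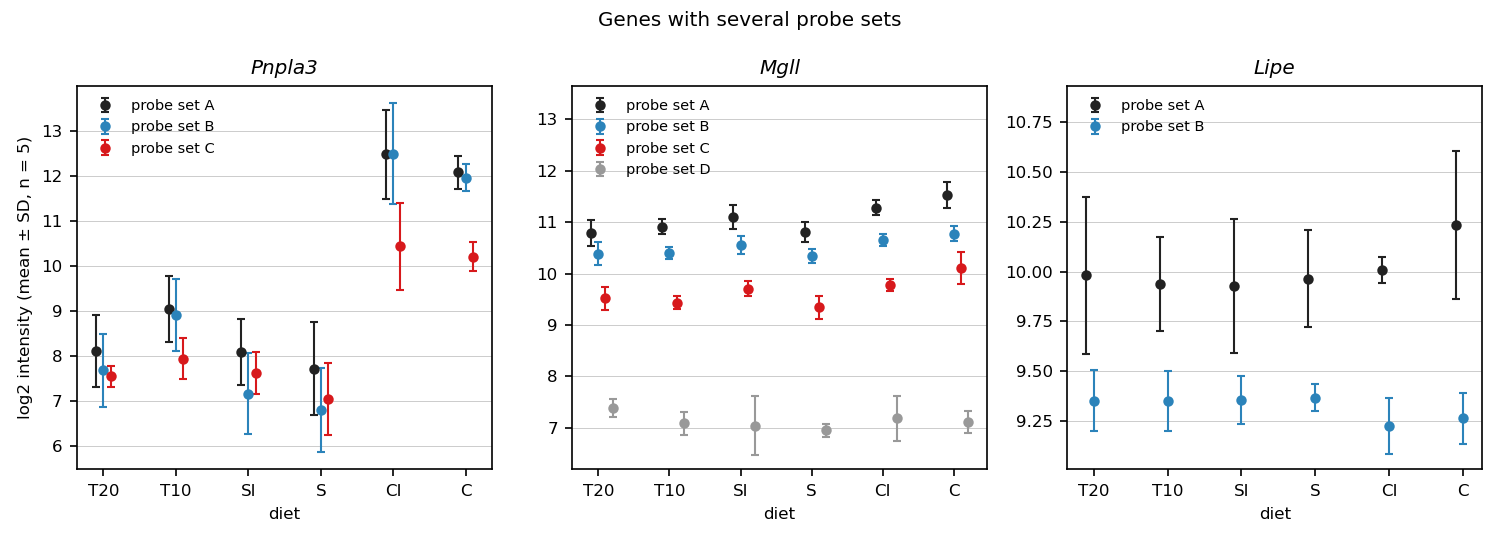
Mean log2 intensity (y axis, error bars SD, n = 5 rats) by diet (x axis) for each probe set of Pnpla3, Mgll and Lipe. Probe set A of each gene is the one of highest mean, on which its values in the text rest, and D of Mgll is the one below the filter. The 3 Pnpla3 probe sets lie low together in T20, T10, SI and S, and the 2 Lipe probe sets differ from C in opposite directions.

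Ces1d went the other way. T20 livers had 13.81, 14.04, 14.05, 14.30 and 14.57, and T10 livers had 13.86, 14.05, 14.05, 14.33 and 14.58. SI livers had 13.73, 13.96, 14.04, 14.37 and 14.52, and S livers had 13.71, 13.92, 14.09, 14.11 and 14.41. CI livers had 12.99, 13.00, 13.46, 13.48 and 13.49, and C livers had 13.06, 13.09, 13.29, 13.43 and 13.50. The lowest of the 20 soy-fed or tofu-fed livers (13.71) lay above the highest of the 10 casein-fed livers (13.50). The difference from C was 0.88 ± 0.16 in T20, 0.90 ± 0.16 in T10, 0.85 ± 0.16 in SI and 0.77 ± 0.16 in S, or 1.71-fold to 1.86-fold. Rat Ces1 genes are close paralogs, and how far the Ces1d probes bind their transcripts was not tested.

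Lipc, the secreted hepatic lipase, was modestly lower. It ran from 13.87 to 14.20 in T20, 13.78 to 14.21 in T10, 13.78 to 13.94 in SI, 13.68 to 14.33 in S, 14.24 to 14.55 in CI and 14.15 to 14.63 in C. The SI livers alone lay below all C and all CI livers. The difference from C was -0.41 ± 0.11 in SI, -0.30 ± 0.11 in S and T10 and -0.20 ± 0.11 in T20, where it turned to 0.08 when every array was set to the same median and spread.

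The classical droplet lipases Pnpla2 and Lipe overlapped between the diets. Pnpla2 ran from 9.52 to 11.26 in the 20 soy-fed or tofu-fed livers and from 9.52 to 10.34 in the 10 casein-fed livers. Its difference from C was 0.24 ± 0.28 in T20, 0.20 ± 0.28 in T10, 0.22 ± 0.28 in SI and 0.32 ± 0.28 in S. Lipe ran from 9.56 to 10.57 in the 20 livers and from 9.87 to 10.67 in the 10 casein-fed livers. Its difference from C was between -0.30 and -0.25 on the 4 soy and tofu diets (SE 0.18), while its second probe set differed by 0.09 to 0.10 (SE 0.09), so no direction can be given for Lipe.

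Counted over the 8 genes, 3 lay below C in all livers of T20 (Pnpla3, Ddhd1, Ddhd2) and 1 above (Ces1d), where 3.02% of all probe sets were lower in this way and 1.97% higher. In T10 the 3 lower genes were Pnpla3, Ddhd1 and Mgll and the higher gene was Ces1d, against 1.15% and 0.784% of all probe sets. In S, Pnpla3, Ddhd1, Ddhd2 and Mgll were lower and Ces1d higher, against 4.33% and 3.17%. In SI, Lipc took the place of Mgll in comparison with C (4% and 3.67%) and in comparison with CI (5.43% and 4.7%). Mgll is counted here by its brightest probe set, and its other tested probe sets overlapped with C. Because these contrasts were known when the genes were picked, nothing is read from the counts.

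**Figure D3:**
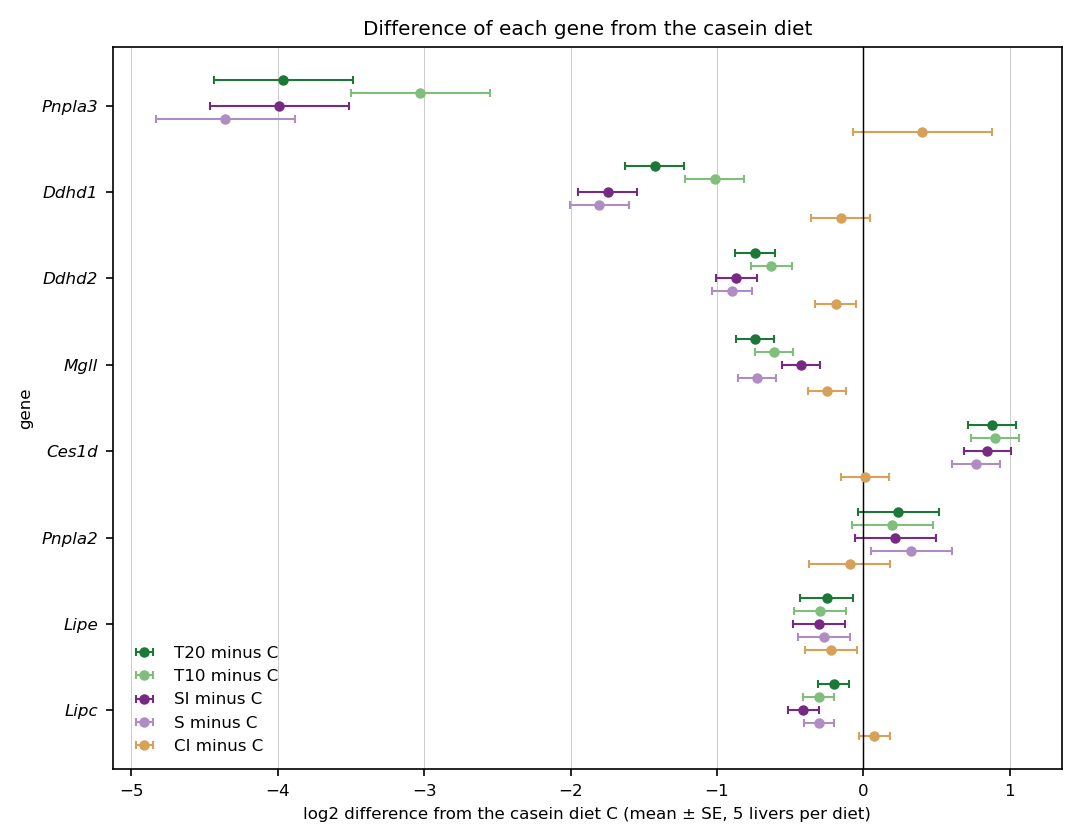
Log2 difference from the casein diet C (x axis, mean ± SE, 5 rats per diet) of the 8 genes (y axis), with a point each for T20, T10, SI, S and CI. Pnpla3 stands at -3.03 to -4.36 in T10, T20, SI and S and at 0.40 in CI, and Ces1d is the gene with all 4 soy and tofu points between 0.77 and 0.90.

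Along the amount of tofu protein, Pnpla3 averaged 12.08 ± 0.38 at 0 g/kg (C), 9.05 ± 0.73 at 100 g/kg (T10) and 8.11 ± 0.80 at 200 g/kg (T20; SD, n = 5 each). The T10 difference from C was 76.4% of the T20 difference on the log2 scale. It was 71.2% for Ddhd1, 84.7% for Ddhd2, 82.8% for Mgll and 102% for Ces1d. These shares share the C arrays and carry no test. Without T10 replicates 3, 4 and 5, T10 minus C was -2.69 for Pnpla3, -1.09 for Ddhd1, -0.83 for Ddhd2, -0.55 for Mgll, -0.25 for Lipc, -0.48 for Lipe and 1.04 for Ces1d, and that of Pnpla2 turned to -0.08.

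Further comparisons asked whether the hydrolases differed by amount of tofu, between tofu and soy protein, and with added isoflavones. The values of these diets were known when the genes were picked, so the tests are not independent of that choice. None of the 8 genes passed in T20 minus T10, T20 minus SI, T20 minus S, SI minus S or CI minus C (limma, Benjamini-Hochberg over 18625 probe sets). At an unadjusted p under 0.05 the counts, by the brightest probe set of each gene, were 0 in T20 minus T10 (7.08% of all probe sets), 1 in T20 minus SI (18.8%), 0 in T20 minus S (15.5%), 1 in SI minus S (3.57%) and 0 in CI minus C (8.62%), the 1 gene being Mgll each time. Other probe sets differed in part. The second Pnpla3 probe set had an unadjusted p of 0.0192 in T20 minus T10. The other tested Mgll probe sets had 0.113 and 0.159 in T20 minus SI, 0.0475 and 0.00745 in SI minus S and 0.227 and 0.0157 in CI minus C. Over all probe sets the adjusted test called 3.51% in T20 minus SI, 3.05% in T20 minus S and 0% in the other 3. T20 minus SI was -0.32 (95% interval -0.58 to -0.05, adjusted p = 0.176) for Mgll and 0.32 (-0.09 to 0.73, adjusted p = 0.405) for Ddhd1. T20 minus T10 was -0.41 (-0.82 to 0.00, adjusted p = 0.711) for Ddhd1. Without T10 replicates 3, 4 and 5, T20 minus T10 was -1.27 for Pnpla3 (adjusted p = 0.911) and -0.33 for Ddhd1 (adjusted p = 0.924), and again none of the 8 passed. Apart from Pnpla3, no 95% interval of the 8 genes reached beyond 0.82 in T20 minus T10, 0.73 in T20 minus SI, 0.79 in T20 minus S, 0.67 in SI minus S and 0.66 in CI minus C. CI minus C uses the C arrays of the description above.

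No difference between CI and C was resolved for any of the 8 genes. CI minus C was 0.40 ± 0.47 for Pnpla3, -0.16 ± 0.20 for Ddhd1, -0.19 ± 0.14 for Ddhd2, -0.25 ± 0.13 for Mgll and 0.01 ± 0.16 for Ces1d, with adjusted p from 0.600 to 0.992 over the 8 genes. The CI livers included the lowest casein-fed value of Pnpla3 (10.74) and of Ddhd1 (9.58), both in CI replicate 5.

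Genes with a profile near that of Pnpla3 over the 30 livers were ranked among 10698 genes by Pearson's r. Because the soy and tofu diets and the casein diets form separate clusters, the r of deviations from the diet means is given beside it. The highest were Secisbp2l (r = 0.94, within diets 0.64), Ddhd1 (0.93, 0.63), Mapkapk5 (0.92, 0.68), Abhd6 (0.89, 0.43), Irs3 (0.88, 0.60) and Dbi (0.88, 0.39). Abhd6 is another monoacylglycerol hydrolase, Irs3 a rodent insulin receptor substrate and Dbi the acyl-CoA binding protein. The lowest were Fmo1, a flavin monooxygenase (-0.93, -0.51), the dicarboxylate transporter Slc13a3 (-0.86, -0.22) and Ypel3 (-0.86, -0.42). The nearest profiles to Ddhd1 were Pnpla3 (0.93), Irs3 (0.90) and Secisbp2l (0.90). Those to Ces1d were the glutamate transporter Slc1a2 (0.87), Mreg (0.85) and the mitochondrial isocitrate dehydrogenase Idh2 (0.84). Slc1a2 averaged 8.33 in the soy-fed or tofu-fed livers and 7.01, under the filter level, in the casein-fed livers, so it passed the filter only through the livers where it is high.

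Within diets, Pnpla3 was also set against each gene from liver to liver. Fasn (fatty acid synthase) had the highest r of all 10698 genes, at 0.80, and Srebf1, which encodes SREBP-1c, ranked 4 at 0.76. Between Fasn and Srebf1 stood Tmcc3 (0.78) and Slc25a3 (0.77), and Gclc (0.76) came next. Acly (ATP citrate lyase) ranked 7 at 0.76. The middle 90% of genes fell between -0.47 and 0.52. Other lipogenic genes lay near 0, with Me1 (malic enzyme) at 0.05, Scd (stearoyl-CoA desaturase) at -0.02 and Mlxipl, which encodes ChREBP, at -0.03. Pnpla2 stood near the other end, at -0.59, rank 10589.

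Spearman's rho was 0.80 for Fasn, 0.80 for Srebf1 and -0.61 for Pnpla2. Without CI replicate 5, which has the lowest Pnpla3 deviation, r was 0.74 for Fasn (rank 5), 0.73 for Srebf1 (rank 8) and -0.61 for Pnpla2. Without the 2 livers farthest from the median, CI replicate 5 and S replicate 3, it was 0.73, 0.72 and -0.50. These r values describe 30 arrays that share the diet means removed, were picked from many genes and carry no p. In replicate 1, Pnpla3, Fasn and Srebf1 lay above the diet mean in all 6 diets, and Pnpla2 lay below it. Replicate number was not removed from the deviations, and its share in the r values was not tested. Among the other 6 hydrolases the within-diet r with Pnpla3 ran from -0.30 (Lipe) to 0.63 (Ddhd1), with 0.49 for Mgll, 0.13 for Ddhd2 and 0.24 for Ces1d.

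**Figure D4:**
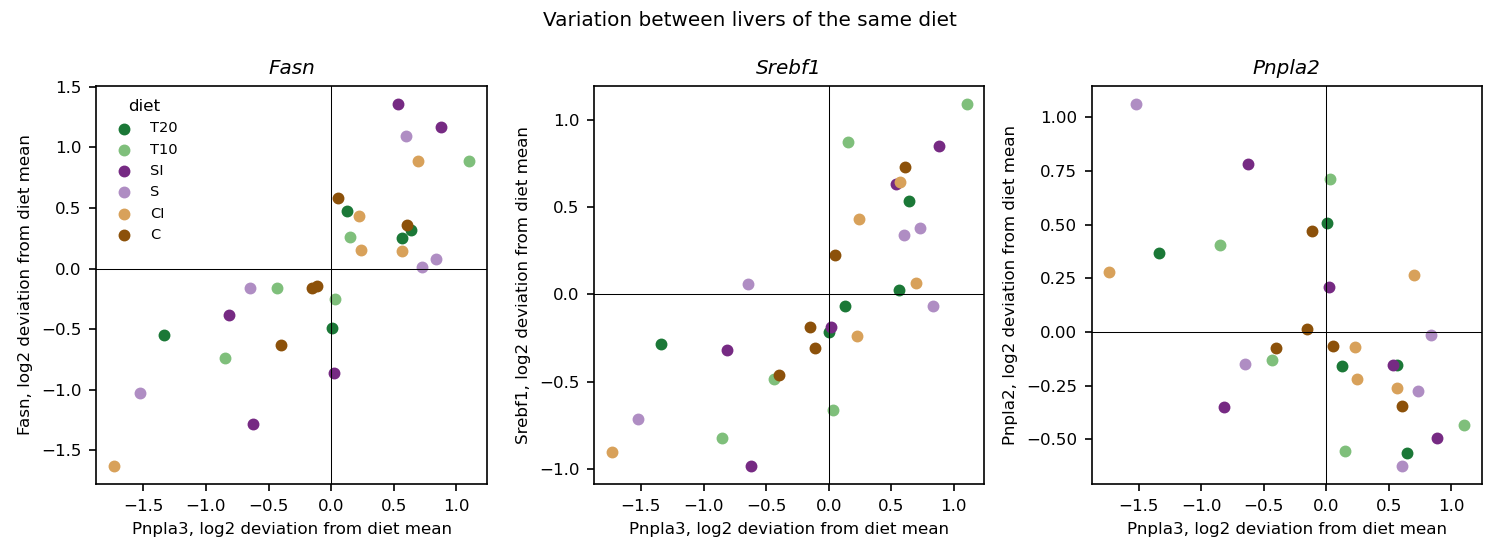
Deviation of Fasn, Srebf1 and Pnpla2 from their diet mean (y axes, log2) against the deviation of Pnpla3 from its diet mean (x axis, log2), 1 point per liver, coloured by diet. Fasn (r = 0.80) and Srebf1 (r = 0.76) are higher where Pnpla3 is higher, Pnpla2 (r = -0.59) is lower there, and CI replicate 5 is the leftmost point.

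The surrounding pathway was covered by 7 lists with 83 genes, of which 61 were named on the array and 55 tested. In T20 minus C, 1 of 55 rose and 5 fell, beside 1.76% and 2.74% of all probe sets (limma, adjusted p under 0.05). In T10 minus C none rose and 1 fell, beside 0.129% and 0.193%. In S minus C 2 rose and 5 fell, beside 2.99% and 4.27%, and in SI minus CI 4 rose and 4 fell, beside 5.5% and 6.14%. CI minus C gave 0 of 55 (0% of all probe sets), with 3 at an unadjusted p under 0.05. The median difference of the 55 genes was 0.01 in T20 minus C, -0.05 in T10 minus C, -0.05 in S minus C and 0.02 in SI minus CI, beside -0.01, -0.03, -0.04 and -0.02 over all probe sets. At most 8 of the 55 genes passed in any of these 5 comparisons.

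Among the coat and regulator genes, 2 of 11 fell in T20 minus C. Plin3, a droplet coat protein of the perilipin family, fell to 10.46 ± 0.24 in T20 and 10.09 ± 0.23 in T10, against 11.04 ± 0.10 in C (SD, n = 5 each). The differences were -0.58 ± 0.13 (adjusted p = 0.0103) and -0.95 ± 0.13 (adjusted p = 0.000271). Without T10 replicates 3, 4 and 5 T10 minus C was -0.90 (adjusted p = 0.0451). Cop1, a ubiquitin ligase known to act on Pnpla2 protein, passed in T20 minus C (-0.29, adjusted p = 0.0227) and S minus C (-0.24, adjusted p = 0.0451). The call in S minus C was lost without any 1 of 13 arrays, among them C replicates 1, 3, 4 and 5 and S replicates 2, 3 and 5 (adjusted p 0.0503 to 0.127). That in T20 minus C was lost without C replicate 3, 4 or 5 or T20 replicate 1 or 2 (adjusted p 0.0505 to 0.0714), and the difference turned to 0.058 as the mean of its probe sets. Hsd17b13, a droplet protein of hepatocytes, fell in SI minus CI by 1.51 ± 0.44 (adjusted p = 0.0260) and lost the call without CI replicate 2, 3 or 4 or SI replicate 5 (adjusted p 0.0502 to 0.0772). Faf2 (UBXD8), a droplet protein that restrains Pnpla2, rose in SI minus CI by 0.24 ± 0.06 (adjusted p = 0.0144), and the call was lost as the mean of its probe sets (0.0537).

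Abhd5 (CGI-58), the coactivator of Pnpla2, did not pass in any of the 5 comparisons. It was -0.25 ± 0.16 in T20 minus C (adjusted p = 0.399) and -0.33 ± 0.16 in SI minus CI (adjusted p = 0.171). G0s2, the inhibitor of Pnpla2, was -0.06 ± 0.24 in T20 minus C (adjusted p = 0.922) and 0.27 ± 0.24 in S minus C (adjusted p = 0.565).

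Of 7 other monoacylglycerol and diacylglycerol hydrolases, Abhd6 fell to 10.24 ± 0.08 in T20 and 10.07 ± 0.18 in S, against 10.54 ± 0.06 in C. The differences were -0.29 ± 0.08 (adjusted p = 0.0249) and -0.46 ± 0.08 (adjusted p = 0.000227). It was also lower in SI (10.11 ± 0.10) than in CI (10.61 ± 0.13), by -0.51 ± 0.08 (adjusted p = 8.64e-05). As the mean of all its probe sets, dim ones included, Abhd6 passed in none of the 3 (adjusted p = 0.114, 0.176 and 0.591), and the T20 call was also lost without T20 replicate 2 or 4 or C replicate 3 or 4. Abhd12, a lysophospholipid and monoacylglycerol hydrolase, rose in SI minus CI by 0.42 ± 0.08 (adjusted p = 0.000844).

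Of the 6 other carboxylesterases and deacetylases tested, Ces2c rose to 10.39 ± 0.23 in S, against 9.80 ± 0.14 in C (0.59 ± 0.13, adjusted p = 0.00450). It was 10.41 ± 0.18 in SI, against 9.58 ± 0.20 in CI (0.83 ± 0.13, adjusted p = 0.000126). On tofu it did not pass, with 0.07 ± 0.13 in T20 minus C (adjusted p = 0.802) and -0.08 ± 0.13 in T10 minus C (adjusted p = 0.887; -0.18 without T10 replicates 3, 4 and 5). The chromosomal neighbours of Ces1d, looked up after its values were seen, were the paralogs Ces1e and Ces1c. Ces1e was -0.10 ± 0.10 in T20 minus C (adjusted p = 0.597), and Ces1c was 0.32 ± 0.10 (adjusted p = 0.0668). Neither passed in the 5 comparisons.

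Of 4 other lipases tested, Pla1a, a phosphatidylserine-specific phospholipase, rose in T20 (0.45 ± 0.12, adjusted p = 0.0232), S (0.60 ± 0.12, adjusted p = 0.00133) and, relative to CI, SI (0.49 ± 0.12, adjusted p = 0.00700). The T20 call was lost without C replicate 5 or T20 replicate 1 or 5 (adjusted p 0.0504 to 0.0671). Lipa, the lysosomal acid lipase, fell in S to 12.35 ± 0.15, against 12.92 ± 0.15 in C (-0.57 ± 0.11, adjusted p = 0.00144). Of the patatin-like relatives, Pnpla8 fell in SI minus CI by 0.88 ± 0.27 (adjusted p = 0.0338), a call lost without CI replicate 3, 4 or 5 or SI replicate 2 or 5 (adjusted p 0.0653 to 0.102). With its probe sets averaged the difference was -0.45 (adjusted p = 0.125).

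Of 9 cofactors and inhibitors of secreted lipases, Angptl4, an inhibitor of lipoprotein lipase, fell to 12.00 ± 0.39 in T20, against 13.26 ± 0.45 in C. The difference was -1.25 ± 0.23 (adjusted p = 0.00203), and all T20 livers lay below all C livers. No other cofactor passed.

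Among 13 regulators of transcription, Mlxipl (ChREBP), which responds to glucose, fell to 9.84 ± 0.30 in T20, against 10.43 ± 0.17 in C (-0.59 ± 0.12, adjusted p = 0.00380). It was -0.46 ± 0.12 in T10 minus C (adjusted p = 0.0944; 0.445 without T10 replicates 3, 4 and 5), -0.32 ± 0.12 in S minus C (adjusted p = 0.0924) and -0.02 ± 0.12 in SI minus CI (adjusted p = 0.937). Its partner Mlx fell in S minus C by 0.36 ± 0.08 (adjusted p = 0.00844). Srebf1 did not pass, with -0.54 ± 0.36 in T20 minus C (adjusted p = 0.426), -0.83 ± 0.36 in T10 minus C (adjusted p = 0.432), -0.70 ± 0.36 in S minus C (adjusted p = 0.272) and -0.17 ± 0.36 in SI minus CI (adjusted p = 0.802). Without T10 replicates 3, 4 and 5 its T10 minus C was -0.53 (adjusted p = 0.790). Insig1, which holds SREBP in the endoplasmic reticulum, fell in S minus C by 1.51 ± 0.43 (adjusted p = 0.0283), and the call was lost without C replicate 2, 3 or 5 or S replicate 1, 3 or 5 (adjusted p 0.0515 to 0.0755). Insig2 fell in SI minus CI by 0.63 ± 0.18 (adjusted p = 0.0220), a call lost without SI replicate 4 (adjusted p = 0.0523).

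**Figure D5:**
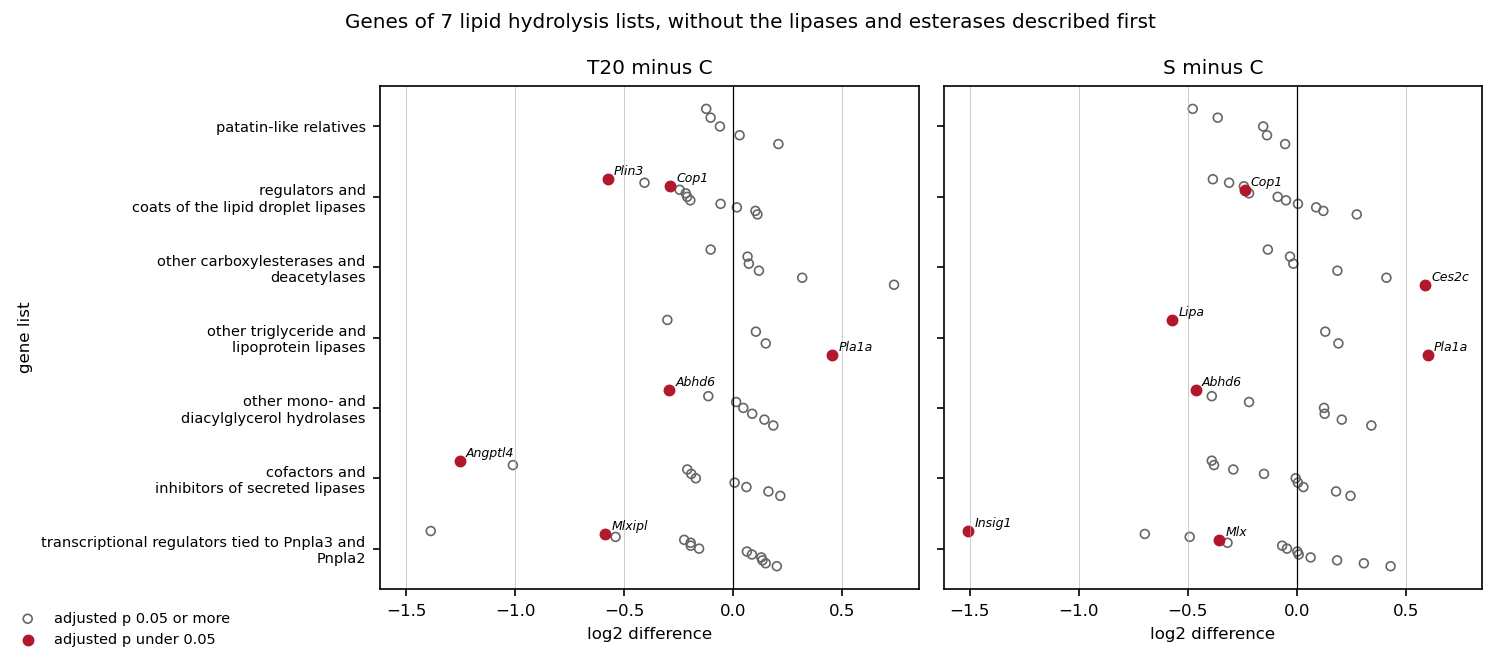
Log2 difference (x axis) of each tested gene of the 7 lists (y axis) in T20 minus C on the left and S minus C on the right, with filled, named points for genes with adjusted p under 0.05. The named points include Angptl4 at -1.25 in T20 and Insig1 at -1.51 in S.

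Single markers of a cell type passed in some of these comparisons, and their part in the results was not tested. Of 2 exocrine pancreas markers tested, Cela1 was higher in T20 than in C (0.68 ± 0.19, adjusted p = 0.0351) and lower in SI than in CI (-0.68 ± 0.19, adjusted p = 0.0182), while Pnlip, Cpa1, Prss1 and Ctrb1 lay below the filter. The summed intensity of the 6 pancreas markers was 2810.8 to 6315 in T20, 3181.5 to 4671.9 in T10, 1705.7 to 2534.3 in SI, 2337.6 to 2800.6 in S, 2690.1 to 4407.2 in CI and 2510.5 to 2989.4 in C. In T20 minus C, Rgs5 rose by 0.76 ± 0.13 (adjusted p = 0.00103), while the median difference of the 6 stellate cell markers was -0.04. Lyve1 rose by 0.35 ± 0.10 (adjusted p = 0.0404), with a median of 0.08 over the 4 endothelial markers. Hnf4a fell in S minus C by 0.53 ± 0.14 (adjusted p = 0.0203), while the median of the 6 hepatocyte markers was -0.002. Cidea rose in S minus C by 0.67 ± 0.18 (adjusted p = 0.0166), with a median of 0.35 over the 3 adipocyte markers tested. In SI minus CI, the hepatocyte marker Serpina1 rose by 0.24 ± 0.06 (adjusted p = 0.0157) and the stellate marker Acta2 by 0.33 ± 0.11 (adjusted p = 0.0442). The medians of the hepatocyte and stellate lists were 0.18 and 0.12 there. None of 6 macrophage markers passed in the 5 comparisons, with up to 2 at an unadjusted p under 0.05.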

How the data were processed

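The study measured liver RNA of 30 rats, 5 per diet, with 1 Affymetrix array per rat, and the labels' protocols describe biotinylated cRNA. The intensity deposited by the authors for each probe set is linear and was normalized with SuperNORM, per the labels. The reference level of that scale is not given in these sources. C replicate 3 and CI replicate 3 share normalization parameters in the labels, and both were kept. Their r of 0.966 lay in the range of arrays of different diets (0.943 to 0.977), which cannot show whether the shared parameters affected their values. Without both arrays, Cop1 lost its calls in T20 minus C and S minus C. Insig1 lost its call in S minus C, and Hsd17b13 and Pnpla8 lost theirs in SI minus CI (limma adjusted p 0.0555 to 0.0855 for these calls). The number of arrays limits the precision.

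Without the 57 control probe sets, intensities under 16 were set to 16 before log2 was taken. Probe sets with a mean log2 above the 40th percentile (7.39) were tested, which gave 18625 for 10699 genes. The platform annotation gives 1 symbol for 20826 probe sets, several for 436 and none for 9780, and 20758 of those with 1 symbol matched a current gene record. The tested probe set of highest mean stood for its gene. A limma model (version 3.58.1, R 4.3.3) of the 6 diet means, with a variance trend and 24 residual degrees of freedom, used all arrays. Tests were two-sided, with Benjamini-Hochberg adjustment over all tested probe sets within a comparison and a threshold of 0.05.

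The genes described, the lists and the alternatives were chosen with earlier results of these data known. Named were all 8 hydrolases, up to 4 passing genes per list by smallest adjusted p, Abhd5, G0s2, Srebf1 and Mlxipl, and the nearest profiles by Pearson's r. Fasn, Acly, Me1, Scd, Tmcc3, Slc25a3, Gclc and the chromosomal neighbours were added after their values were seen. Replicate numbers were not used to pair the arrays in the main model. Same-numbered arrays of different diets correlated at 0.05 on average in their deviations from diet means (-0.28 to 0.35), and 22 of 75 pairs exceeded 0.1. Arrays of different diets with another number correlated at -0.01 on average (-0.37 to 0.40), and 50 of 300 pairs exceeded 0.1. What the replicate number stands for was not tested. The fit was tested on simulated data. Figures were drawn with matplotlib 3.10.9 in Python 3.11.15.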

Additional observations from a re-analysis of the deposited data

Results flagged for a closer look

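Pnpla3 in CI replicate 5 was set apart as a liver far from the others of its diet. Its log2 intensity was 10.74, against 12.70 to 13.18 in the other 4 CI livers, and the gap to the nearest of them was 80.6% of the range of the group. This was the only such value among 48 combinations of gene and diet, where chance alone gives about 1 in 20. The same liver also had the lowest Ddhd1 of the casein-fed livers (9.58).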

How the results depend on the processing

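The differences of the 8 hydrolases from casein were recomputed under other scalings, floors, filters, weights and with each array left out. Pnpla3 stayed between -3.63 and -4.12 in T20 minus C, and between -2.81 and -3.30 in T10 minus C, with each array left out in turn. Setting every array to equal median and spread gave 1.15 for Ces1d and 0.08 for Lipc in T20 minus C, and -0.37 for Lipc in the difference between the isoflavone effects on soy protein and on casein. The mean of all Mgll probe sets, with the dim one, gave -0.36 in T20 minus C and -0.52 in S minus C. The count of 0 of 8 genes passing held in T20 minus T10, T20 minus SI, T20 minus S, SI minus S and CI minus C under each alternative run. Of the 55 pathway genes, 14 passed in SI minus CI with array medians equal (8 as reported), a setting that moved the median of all probe sets by 0.11. In T10 minus C 3 passed with array weights (1 as reported), and in T20 minus C 2 passed when the fit held the compared groups alone (6 as reported). With each array left out, the counts were 4 to 7 in T20 minus C, 1 to 2 in T10 minus C (2 without C replicate 1 and without T20 replicate 1), 5 to 9 in S minus C and 6 to 10 in SI minus CI. The fit of the compared groups alone lost the T20 minus C calls of Abhd6, Cop1, Mlxipl and Pla1a (adjusted p 0.0679 to 0.148), the S minus C call of Cop1 (0.144) and the SI minus CI call of Faf2 (0.0531). Equal median and spread lost those of Abhd6 and Cop1 in T20 minus C and of Cop1 and Insig1 in S minus C (0.0680 to 0.284), and equal array medians that of Insig2 in SI minus CI (0.0587) and of Cop1 in S minus C (0.134). Quantile normalization lost Abhd6 in T20 minus C (0.0510) and Cop1 in S minus C (0.0690). Cop1 also lost its call with array weights in T20 minus C (0.0510), and in S minus C with no filter (0.0631), with no variance trend (0.0532) and when its probe sets were averaged (0.677). Cop1 turned to 0.058 in T20 minus C as the mean of its probe sets. Pla1a gave no value under the filter at the 60th percentile, which left its probe set out. Otherwise the cause of these shifts was not tested. With the replicate number as a block, 12 pathway genes passed in S minus C (7 as reported) and 2 in T10 minus C (1 as reported). By their deviations from diet means, 9 of 30 arrays correlated best with their own number.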

Other observations

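The genes next to Pnpla3 in the GRCr8 gene order were looked up after the values had been seen. Parvb, which encodes an actin-binding adhesion protein and follows Pnpla3 at a distance of 2 genes, fell in T20 minus C by 0.73 ± 0.13 (adjusted p = 0.00171). It also fell in S minus C by 0.59 ± 0.13 (adjusted p = 0.00423) and in SI minus CI by 0.52 ± 0.13 (adjusted p = 0.00967). Samm50, which lies between Pnpla3 and Parvb and encodes a mitochondrial outer membrane protein, was -0.27 ± 0.10 in T20 minus C (adjusted p = 0.111) and -0.10 ± 0.10 in S minus C (adjusted p = 0.646). Parvg on the far side of Parvb was -0.10 ± 0.13 in T20 minus C (adjusted p = 0.706). Before Pnpla3, the sulfotransferase gene Sult4a1 fell in SI minus CI by 1.11 ± 0.29 (adjusted p = 0.0122) and did not pass in the other 4 comparisons, with -0.33 ± 0.29 in T20 minus C (adjusted p = 0.557). No probe set on the array was named for Pnpla5 or Efcab6 alone, so they were not analysed here.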
